A study of Drosophila melanogaster with 6 samples.

Results

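The heat shock genes Hsp83, at cytological position 63B, and Hsp22, Hsp23, Hsp26 and Hsp27, at 67B, lie on chromosome arm 3L of Drosophila melanogaster. Their Gcn5 binding was read from 3 deposited peak lists of chromatin immunoprecipitation and sequencing (ChIP-seq) as the peaks that overlap chr3L:3185000-3205000 (63B) or chr3L:9350000-9400000 (67B) on build dm3. This rule selected 22 of 14386 peaks, 8 of 5096 in Kc cells with GFP RNAi, 8 of 4228 in Kc cells with CP190 RNAi and 6 of 5062 in S2 cells with GFP RNAi. The 63B window held 3 of them and the 67B window 19. The members were chosen by position, with the widths, scores and presence of these peaks in the lists already known, so these values are given as a description, with no test.

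Kc and S2 are established cell lines derived from Drosophila embryos. Cells were grown at 25 °C and treated with double-stranded RNA that targets GFP (the control) or CP190, at 90 µg for 6000000 cells. The labels name no heat shock. The chromatin was crosslinked with 1% formaldehyde, and 5 µg of a rabbit polyclonal Gcn5 antibody was used per immunoprecipitation. The extraction protocol given with the S2 library is worded for Kc cells, and the S2 list spells its sequence names without the prefix of the Kc lists, so cell line and processing cannot be told apart. The series has 6 samples, and its 3 input libraries were not analysed here. The depletion of CP190 was also not analysed here. Each group has 1 library, so the differences described here could not be checked against replicates. The lists give no read depth. A site without a peak in a list is a site where none was called, and Gcn5 may still have been bound there.

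Gcn5 acetylates histones as a subunit of the coactivators SAGA and ATAC. The zinc-finger protein CP190 sits at insulators and at many promoters, where DNA-binding insulator proteins recruit it. The heat shock genes encode chaperones, which hold or refold damaged proteins, and are switched on by heat shock factor, a protein that binds their promoters as a trimer. Before heat shock several of them, Hsp26 and Hsp27 among them, already carry a paused RNA polymerase and the GAGA factor, so they have long served as models of promoters held ready for activation. Hsp83 is the fly Hsp90, a chaperone of kinases and steroid receptors that is abundant without stress. Hsp22, Hsp23, Hsp26 and Hsp27 belong to the small heat shock proteins, which share the alpha-crystallin domain and keep unfolding proteins from aggregating. Hsp22 is mitochondrial, and Hsp27 is found in the nucleus. The small heat shock genes are also induced by the steroid hormone ecdysone in Drosophila cell lines.

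All 5 genes were found in the gene table of Release 6, a later assembly than dm3, which served here for names and gene order. In that order, the genes from the first to the last small heat shock gene named above number 7, of which 6 code for proteins. Hsp22 is followed by CG4461, Hsp26, Hsp67Ba, an antisense RNA gene, Hsp23 and Hsp27. Hsp67Bc, a further small heat shock gene, precedes Hsp22, with CG4456 between them. Hsp83 lies between CG14965 and CG14966. No dm3 annotation was used here, so peaks are given by position and are not assigned to single genes. The peaks of the windows can therefore belong to any of these genes or to others nearby.

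At 63B, Gcn5 formed 1 very wide peak in each library. In Kc cells with GFP RNAi it spanned chr3L:3191803-3199698, a width of 7896 bp. After CP190 RNAi it spanned chr3L:3191868-3199888, a width of 8021 bp. In S2 cells it spanned chr3L:3191624-3199784, a width of 8161 bp. The peak thus kept nearly the same limits in all 3 lists. The CP190 RNAi peak began 65 bp and ended 190 bp to the right of the control peak and covered 99.2% of it. The S2 peak covered the whole of the control peak. In all, 7831 bp of the window lay in a peak of every library.

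**Figure D1:**
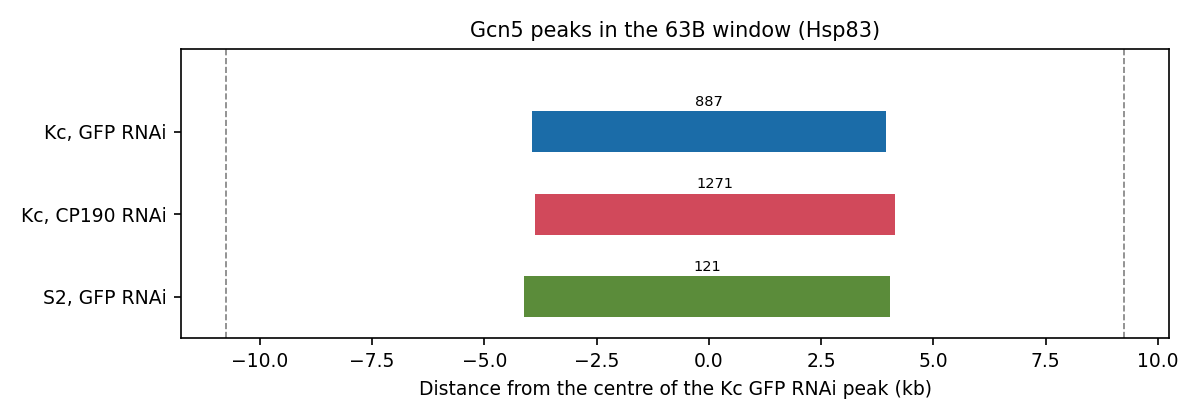
Gcn5 peaks of the Hsp83 window, drawn by distance in kb from the centre of the control peak, with 1 row per library. Bars are peaks, the number above each is the authors' score in its own list (not comparable between lists), and dashed lines are the window limits. Each library has 1 peak of about the same extent, with scores of 886.97, 1270.96 and 120.75.

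Peaks of this width were rare in every list. The median peak was 1271 bp wide in the control list, 1308 bp after CP190 RNAi and 1209 bp in S2. By width the 63B peak had rank 2 of 5096 in the control list, rank 6 of 4228 after CP190 RNAi and rank 3 of 5062 in S2. Peaks of 7 kb or more numbered 7, 8 and 13 in these lists.

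Neither the scale of the authors' score nor any normalization between libraries is stated. Each score was therefore ranked only within its own list, where rank 1 is the highest. By score the Kc and S2 peaks at 63B had unlike places. In the control list the score was 886.97, rank 41 of 5096, with 99.2% of the list below it. After CP190 RNAi it was 1270.96, rank 2 of 4228, with 99.95% of the list below it. In S2 it was 120.75, rank 2952 of 5062, with 41.7% of the list below it. The Hsp83 window thus held one of the highest-scored peaks of both Kc lists and a peak below the S2 median of 153.4. Ranks in lists of different lengths do not measure a change in binding.

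The place of the 63B peak among wide peaks alone differed in the same way. Of the peaks of 4 kb or more, it was number 3 of 132 by score in the control list and number 2 of 105 after CP190 RNAi. It was number 93 of 130 in S2, where the median score of such wide peaks was 190.5. Divided by width, the score gave 112 per kb in the control list (rank 2291), 158 per kb after CP190 RNAi (rank 536) and 14.8 per kb in S2 (rank 5040 of 5062). By score per kb the control peak thus had 55.0% of its list below it, the CP190 RNAi peak 87.3% and the S2 peak 0.435%.

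**Figure D2:**
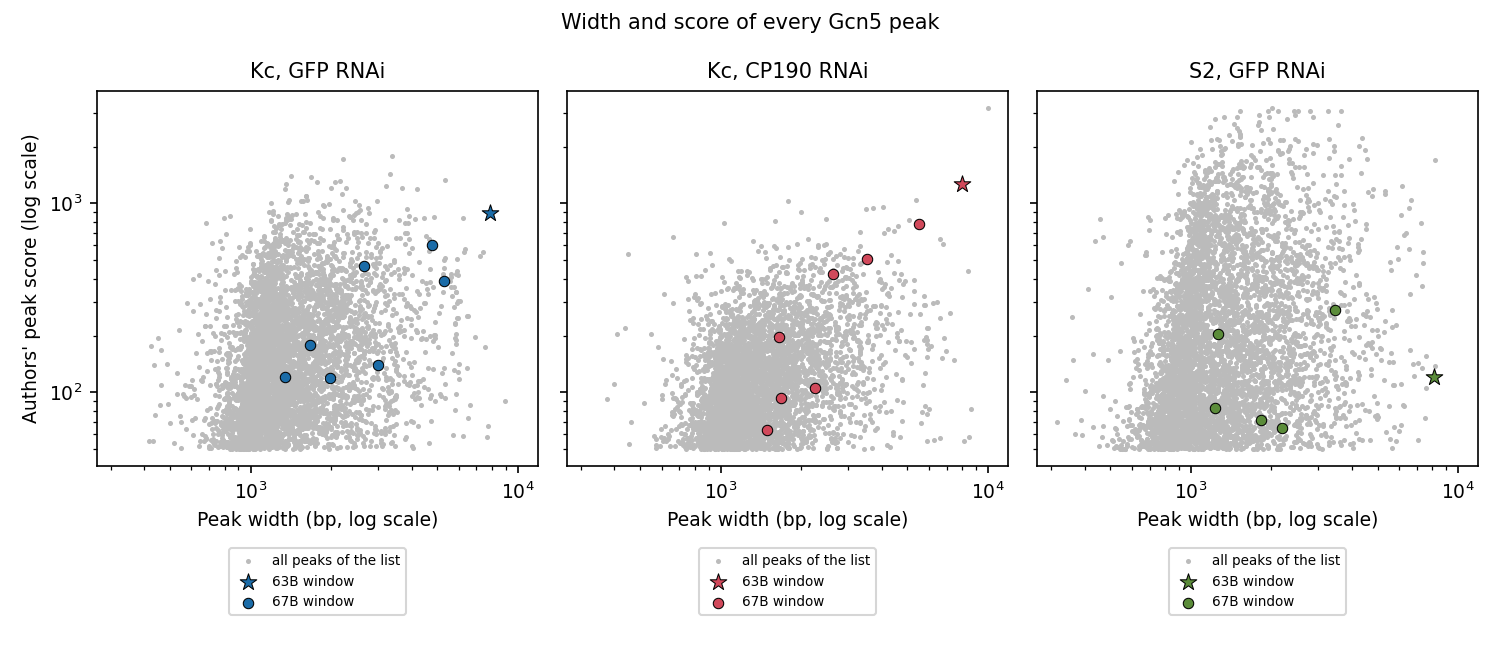
Width in bp (horizontal, log scale) and the authors' score (vertical, log scale) of every peak, with 1 panel per library. Grey points are all peaks, the star is the Hsp83 window and circles are the 67B window. The star lies at the upper right in both Kc panels (scores of 886.97 and 1270.96) and at the lower right in the S2 panel (120.75).

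At 67B, peaks that overlapped across the lists formed 8 sites, numbered here from left to right. Of these, 4 were called in all 3 libraries, 3 in a pair of libraries and 1 after CP190 RNAi alone. This split was not computed over the whole lists, so it is not read as particular to 67B. The control list had 7 peaks, the CP190 RNAi list 7 and the S2 list 5. The Kc lists shared a compact block of high-scored peaks, sites 3, 4 and 5, most of which the S2 list lacked. Kc peaks without an S2 peak were common, since S2 peaks met 59.7% of all control peaks and 44.6% of all CP190 RNAi peaks. Lower-scored peaks stood in the Kc lists to its left (sites 1 and 2) and to its right (sites 6, 7 and 8).

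**Figure D3:**
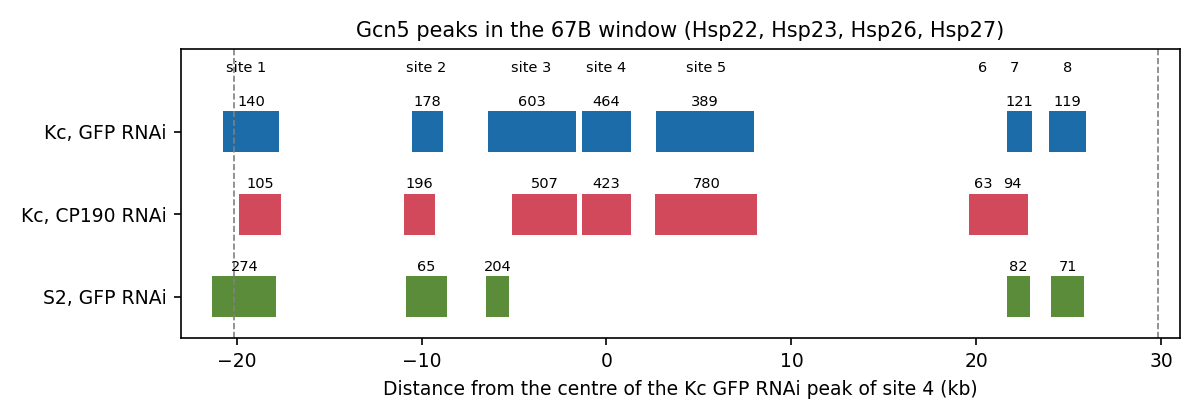
Gcn5 peaks of the 67B window, drawn by distance in kb from the centre of the control peak of site 4, with 1 row per library. Bars are peaks, the number above each is the authors' score in its own list (not comparable between lists), and dashed lines are the window limits. Sites 4 and 5 have a peak in both Kc rows and none in the S2 row.

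Site 3 opened the block. In the control list it spanned chr3L:9363758-9368540, 4783 bp wide, with a score of 602.68 and rank 190 of 5096. After CP190 RNAi it spanned chr3L:9365046-9368581, 3536 bp wide, with a score of 507.11 and rank 56 of 4228. The right edges of both Kc peaks lay 41 bp apart, while the left edge after CP190 RNAi lay 1288 bp further right. In S2 the site was a peak of 1261 bp at chr3L:9363643-9364903, with a score of 204.22 and rank 2064 of 5062. That S2 peak covered 1146 bp, or 24.0%, of the control peak and ended before the CP190 RNAi peak began. The part of the control peak under the S2 peak thus lay within the 1288 bp at its left end that the CP190 RNAi peak lacked.

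Site 4 had almost the same limits in both Kc lists. The control peak spanned chr3L:9368833-9371491, 2659 bp wide, with a score of 464.31 and rank 372. The CP190 RNAi peak spanned chr3L:9368843-9371462, 2620 bp wide, with a score of 423.31 and rank 111. Its start lay 10 bp and its end -29 bp from those of the control peak (CP190 RNAi minus control). Over all control peaks met by exactly 1 CP190 RNAi peak, 2888 in number, the median absolute difference was 70 bp at the start and 66 bp at the end. These medians carry no direction. A median of 92.5% of such a control peak was covered, with a lower quartile of 83.9%. The share was 98.5% at site 4, 100% at site 5 and 85.3% at site 7. It was below that quartile at sites 1, 2 and 3, with 71.4%, 74.3% and 73.1%. No S2 peak overlapped site 4.

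Site 5 was the widest peak of the 67B window. The control peak spanned chr3L:9372828-9378121, 5294 bp wide, with a score of 388.56 and rank 572. The CP190 RNAi peak spanned chr3L:9372801-9378312, 5512 bp wide, with a score of 779.53 and rank 13 of 4228. The CP190 RNAi peak covered the whole control peak. No S2 peak overlapped this site either. Within the control list site 3 had the highest score of the block and site 5 the lowest, whereas within the CP190 RNAi list site 5 had the highest and site 4 the lowest.

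Taken as a block, sites 3 to 5 spanned 14.4 kb in the control list, of which peaks covered 88.7%. After CP190 RNAi the block spanned 13.3 kb, of which 87.9% was covered. The gaps inside it were 292 and 1336 bp in the control list and 261 and 1338 bp after CP190 RNAi. The block held 63.1% of all peak-covered sequence of the window in the control list and 62.3% after CP190 RNAi.

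The S2 list had no peak over 26921 bp of this window, chr3L:9364904-9391824. A gap of this length was common in the S2 list. On arms 2L, 2R, 3L, 3R and X, 1297 of the 4860 gaps between neighbouring S2 peaks were as long or longer (26.7%), and the median gap was 12042 bp. The amount of Kc peak inside it was less common. Control peaks covered 11605 bp of this gap, and 10 of the 4860 gaps, this one included, held as much. CP190 RNAi peaks covered 13704 bp of it, and 7 of the 4860 gaps, this one included, held as much. The control peaks of sites 4 and 5 stood at number 12 and number 36 by score among the 1647 control peaks on the major arms without an S2 peak. Among the 1957 such peaks of the CP190 RNAi list, site 5 was number 2, site 3 number 6 and site 4 number 18. The S2 gap was taken as the longest inside a window chosen with its peaks known, and was compared with gaps of any length. All places given for the gap and its peaks are therefore a description only.

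The left sites were called in every library and had lower whole-peak scores than the block in the Kc lists. Per kb of width the control order was another one, since site 2 (106.5 per kb) and site 7 (90.3 per kb) stood above site 5 of the block (73.4 per kb). After CP190 RNAi the block also led per kb, with site 5 lowest in it at 141.4 per kb and site 2 next at 119.0 per kb. Site 1 crossed the left window limit in the control list, at chr3L:9349442-9352432 with a score of 139.81 and rank 2551. After CP190 RNAi it spanned chr3L:9350296-9352544, with a score of 105.16 and rank 2204. In S2 it spanned chr3L:9348856-9352313, with a score of 274.18 and rank 1647, the highest score of the S2 list in the window. By whole-peak score, site 1 thus led the 67B sites within the S2 list but stood below each peak of the block in both Kc lists. Per kb of width, site 3 led in S2 with 161.95, against 79.3 for site 1.

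Site 2 spanned chr3L:9359648-9361318 in the control list, with a score of 177.97 and rank 1994. After CP190 RNAi it spanned chr3L:9359240-9360888, with a score of 196.29 and rank 817. In S2 it spanned chr3L:9359350-9361535, with a score of 64.92 and rank 4374, which left 13.6% of the S2 list below it. Both edges of the CP190 RNAi peak lay to the left of the control edges, at -408 bp at the start and -430 bp at the end (CP190 RNAi minus control).

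The right sites had the lowest scores of the window in the Kc lists and differed between them. Site 6 was called only after CP190 RNAi, at chr3L:9389781-9391272, with a score of 63.03 and rank 3543. It ended 8 bp before the CP190 RNAi peak of site 7 and 537 bp before the control peak of site 7. Site 7 spanned chr3L:9391810-9393153 in the control list (score 121.31, rank 2874) and chr3L:9391281-9392955 after CP190 RNAi (score 94.00, rank 2517). The S2 peak of site 7 spanned chr3L:9391825-9393052, with a score of 82.39 and rank 3805. Site 8 was called at chr3L:9394103-9396090 in the control list (score 118.64, rank 2918) and at chr3L:9394182-9396008 in S2 (score 71.19, rank 4117). The CP190 RNAi list had no peak at site 8, and its nearest peak to the left ended 1147 bp before the control peak. Site 8 was the only control peak of both windows that no CP190 RNAi peak met.

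**Figure D4:**
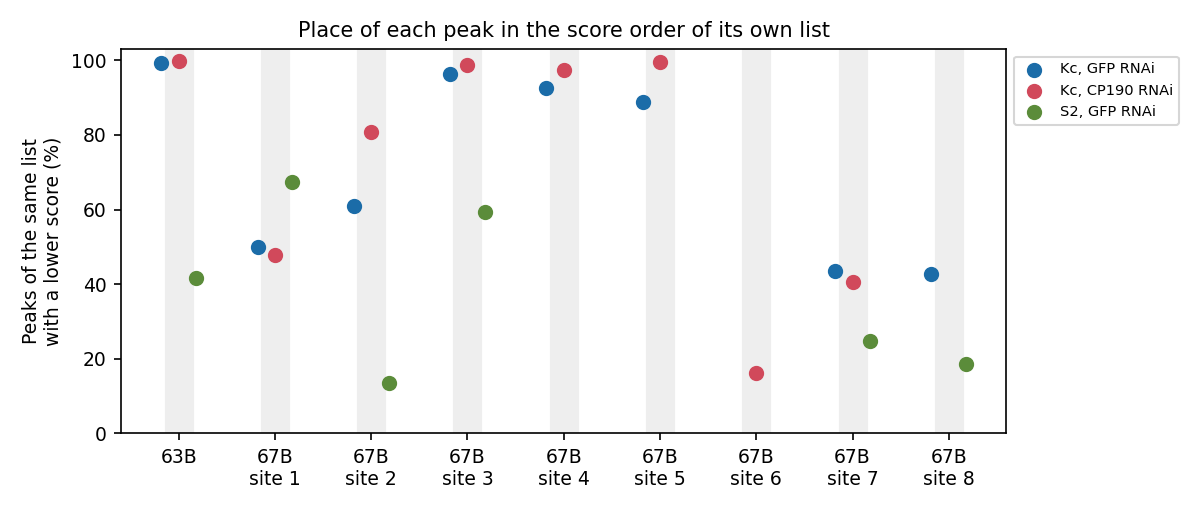
Share of each library's own list (%, vertical) with a lower score than the peak at each site of the 63B and 67B windows (horizontal), with 1 point per called peak. A missing point is a site with no called peak. Sites 3, 4 and 5 lie at 88.8% or above in both Kc lists, and the only S2 point among them, at site 3, lies at 59.2%.

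Counted over the window, 6 of the 7 control peaks at 67B were met by a CP190 RNAi peak with an overlap of at least 1 bp, as was the 63B peak. Over the whole control list 57.8% were met (2944 of 5096, exact 95% interval 56.4 to 59.1%). This interval and those below treat the peaks of 1 library as independent draws and hold no spread between libraries. On 3L, the arm of both windows, 497 of 913 control peaks were met (54.4%, 51.1 to 57.7%). Of control peaks of 4 kb or more, 110 of 132 were met (83.3%, 75.9 to 89.3%), and the control peaks of 63B and of sites 3 and 5 were of this width. In the other direction, 6 of the 7 CP190 RNAi peaks at 67B met a control peak, against 70.4% of that list. Since the windows were chosen with these overlaps known, nothing is read from the counts beside these shares.

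S2 peaks met 5 of the 7 control peaks at 67B and the control peak at 63B. Over the whole control list 59.7% were met (3043 of 5096, 58.4 to 61.1%), and of control peaks of 4 kb or more 74 of 132 (56.1%, 47.2 to 64.7%). On 3L the share was higher, with 616 of 913 control peaks met (67.5%, 64.3 to 70.5%). With an overlap of at least 50% of each peak, 4 of the 7 were met, since the S2 peak of site 3 then no longer counted. S2 peaks met 3 of the 7 CP190 RNAi peaks at 67B, against 44.6% of that list. All 5 S2 peaks of the window met a control peak, against 60.4% of the S2 list, and 3 met a CP190 RNAi peak, against 37.0%.

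By length, Gcn5 peaks covered 20172 bp of the 67B window in the control list (40.3%), 18733 bp after CP190 RNAi (37.5%) and 8816 bp in S2 (17.6%). The other windows of 50 kb placed back to back along 2L, 2R, 3L, 3R and X, 2375 in number, had a median coverage of 2441 bp in the control list. None of them reached the control value at 67B, and the most covered had 18085 bp. None reached the CP190 RNAi value either, with at most 17502 bp. In S2, 122 of the 2375 windows were covered as much as 67B. When the windows were shifted by 25 kb, 1 window exceeded the CP190 RNAi value, with 19897 bp, and the control value was still not reached. Both heat shock windows were chosen with their peaks known, while the other windows lie on a fixed grid that can split groups of peaks. Places among windows are therefore a description only.

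Base by base, 4390 bp of the 67B window lay in a peak of every library. A further 11543 bp lay in peaks of both Kc lists and not of S2. The control and S2 lists shared 3796 bp that the CP190 RNAi list lacked, and the CP190 RNAi and S2 lists shared 298 bp that the control lacked. The CP190 RNAi list alone covered 2502 bp, the control list alone 443 bp and the S2 list alone 332 bp. Of the sequence covered in either Kc list, 69.4% was covered in both. Of the sequence covered in the control or the S2 list, 39.4% was covered in both. At 63B these shares were 96.8% in each case. Shares of sequence were not computed over the whole lists, so these values have no background here. By count of peaks, CP190 RNAi peaks met 57.8% and S2 peaks 59.7% of the whole control list. On 3L alone these shares were 54.4% and 67.5%.

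The 63B window was covered over 7896 bp in the control list, 8021 bp after CP190 RNAi and 8161 bp in S2. Of 5945 other windows of 20 kb, 26, 28 and 34 were covered as much in the respective lists. Unlike 67B, the 63B window thus had about the same covered length and about the same place among windows in all 3 libraries.

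**Figure D5:**
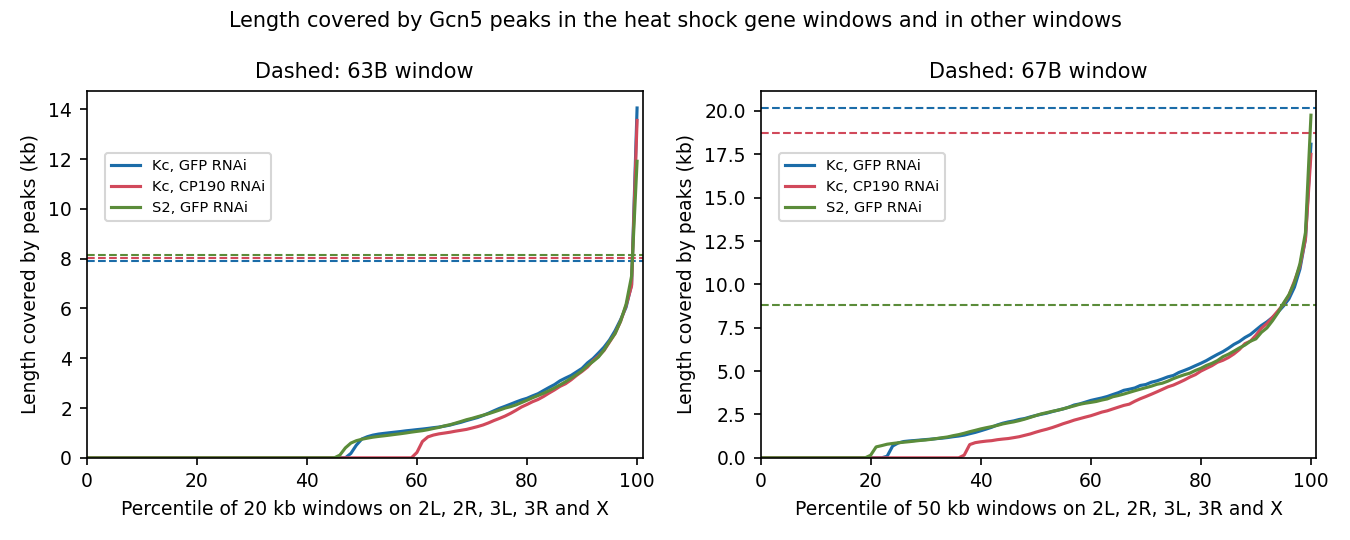
Length covered by peaks (kb, vertical) against the percentile of windows of the same length on 2L, 2R, 3L, 3R and X (horizontal), for 20 kb windows (left) and 50 kb windows (right). Lines are the libraries and dashed lines are the 63B and 67B values. At 67B the dashed lines of the Kc libraries (20172 and 18733 bp) lie above their curves, and that of S2 (8816 bp) meets its curve.

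The nearest Kc peaks outside the windows were between 932 and 1671 bp wide. To the left of 63B, the nearest control peak ended 5372 bp from the window (score 261.28) and the nearest CP190 RNAi peak 15245 bp from it (score 50.23). To its right the nearest Kc peaks began 13372 bp away in the control list and 13357 bp away after CP190 RNAi, with scores of 139.86 and 88.93. The nearest S2 peak on that side lay 16652 bp away, with a width of 5347 bp, a score of 1121.84 and rank 241. To the left of 67B the nearest peaks had scores of 72.68 in the control list, 90.96 after CP190 RNAi and 321.53 in S2. To its right, the nearest peak began 3413 bp from the window in the control list, 3288 bp after CP190 RNAi and 2958 bp in S2, with scores of 95.43, 83.63 and 50.30.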

How the data were processed

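Gcn5 ChIP-seq peak lists of 3 libraries were used, grouped by sample title. Per the submitters' processing notes, Bowtie, MACS, bedtools and HOMER were used with build dm3. What each tool did, its version, the threshold for peaks and whether inputs entered are not given in the sources. The authors deposited 1 list per library with a score per peak, whose scale the files do not state. The lowest score was 50.00 to 50.08. Prefixes of sequence names were removed, and starts were taken as 0-based and are printed 1-based. No list held overlapping peaks. Overlaps, ranks and covered lengths were computed with Python 3.11.15, numpy 2.4.6 and pandas 2.3.3, and exact (Clopper-Pearson) intervals with scipy 1.17.1. Overlap counts were tested on simulated data with known answers. The windows, members and gene lists were chosen with earlier results of these data known. Named were the 5 genes and every peak of both windows. The values for peaks of 4 kb or 7 kb or more and for the S2 gap were added after the data were seen. Also not planned were the edge differences, the block of sites 3 to 5 and the sharing base by base. The 3L shares, the places among Kc peaks without an S2 peak and the nearest outside peaks were not planned either. Planned comparisons of promoter motifs, proteins and a list of further chaperone genes were not run, since no sequence tables and no dm3 annotation were used here. With 1 library per group no test was made.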

Additional observations from a re-analysis of the deposited data

How the results depend on the processing

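Of 102 alternative values, 88 stayed close to the reported ones (counts and lengths within 1.5 times, shares within their 95% binomial interval) and 14 did not. The binomial interval served only as a yardstick of closeness and measures no spread between libraries. With centres within 250 bp, 2 of the 7 control peaks at 67B were met after CP190 RNAi and 3 in S2. With both lists limited to scores from 100, 2 of 7 were met in S2, where 2 peaks and 3575 bp of the window were left. Widening the windows by 10 kb on each side gave 2 control peaks at 63B. When scores were divided by width, the share of the list below the highest peak at 63B was 55.0% in the control list, 87.3% after CP190 RNAi and 0.435% in S2. At 67B it was 75.0%, 88.1% and 60.4%, but the highest peak was then another one in each list (site 4 in place of site 3 in the control list, site 4 in place of site 5 after CP190 RNAi, and site 3 in place of site 1 in S2). Merging peaks across 200 bp moved the width place of the widest S2 peak at 67B from 95.7% to 95.01%. Shifting the back-to-back windows by 25 kb, an alternative chosen after seeing the data, gave 1 window covered as much as 67B after CP190 RNAi. The S2 peaks lost at the score limit of 100 were those of sites 2, 7 and 8. The widened 63B window took in the control peak that ended 5372 bp to its left. That count and the one for shifted windows depend on where window limits fall. For the other moved values the cause was not tested. No paired analysis was possible because the groups hold 1 library each, and no library could be left out. Depth is unknown, so the lists do not show which missing peaks are weak rather than absent.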
